A study of Mus musculus with 2 samples.

Results

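Sense-intronic genes are annotated noncoding genes that lie inside an intron of another gene, on the same strand. The genes described here are those whose transcripts are all typed as sense-intronic in the deposited transcript tables and whose expected count, an estimated number of reads, averaged at least 20 over the 2 libraries. The rule found 109 members among 327 sense-intronic genes, out of 55536 genes in all. The members were thus chosen by their expected counts, and their levels are given as a description, with no test.

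The RNA came from C57BL/6J mouse bone-marrow-derived macrophages, primary cells grown from bone marrow. The cells were treated with Lipid A at 100 ng/ml for 12 h, washed free of it for 12 h, and treated again with 100 ng/ml for 10 min. Lipid A, the membrane anchor of bacterial endotoxin, is sensed by TLR4. Both libraries were ribosome-depleted total RNA of the nucleus, named in the labels as the nucleoplasmic fraction, and both belong to this single condition. By the labels, replicate 1 started from 1000 ng of nucleic acid, and replicate 2 from 500 ng. Both carry 1 donor identifier, and the labels do not say whether they were separate cultures or animals, so the spread between them may be technical. Age and sex were not recorded. Gene counts summed to 24444219 in replicate 1 and 18051097 in replicate 2. All 8 macrophage markers were detected, meaning a TPM (a level per transcript length, scaled to a fixed total in each library) of at least 1 and a count of at least 10 in both libraries. None of 4 markers each of B cells, T cells, neutrophils, fibroblasts and erythroid cells was detected. Their summed TPM ran from 2437 to 2597 for macrophages, and from 0 to 0.89 over the other 5 lists. In bulk samples, fewer cells of a type and less RNA per cell cannot be told apart.

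An intron is transcribed with the rest of its gene, cut out by the spliceosome as a lariat, opened by the debranching enzyme Dbr1 and degraded in the nucleus, largely by the RNA exosome. Nuclear RNA holds unspliced precursors as well as finished transcripts. A gene annotated inside an intron can have a promoter of its own, can share the promoter of the host gene and end at a polyadenylation site inside the intron, or can be a piece of the unspliced host. Gene-level tables do not separate these cases: a read from unspliced host RNA inside the annotated span and a read from an RNA of its own cannot be told apart here. The name "nascent RNA signal" was therefore not checked directly, and the members are called by their annotated type.

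The annotated 3′ ends of 4 members with high counts are shown as picked examples, not as a sample of the class. Polyadenylated transcripts commonly carry the hexamer AATAAA shortly before their end. The last 60 transcribed bases are printed 5′ to 3′ with AATAAA in capitals, from GENCODE M21 transcripts on mm10. Where copies of AATAAA overlap, as in Peg13, only the first is in capitals. They lie at chr1:131406812-131406871 on the minus strand for Gm29488, at chr3:119743208-119743267 on the minus strand for Gm42664, at chr14:25462328-25462387 on the plus strand for Gm47920 and at chr15:72805600-72805659 on the minus strand for Peg13.
Gm29488: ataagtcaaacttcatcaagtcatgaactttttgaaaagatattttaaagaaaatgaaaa
Gm42664: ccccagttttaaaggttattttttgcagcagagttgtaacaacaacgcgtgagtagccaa
Gm47920: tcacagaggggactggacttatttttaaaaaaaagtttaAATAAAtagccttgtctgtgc
Peg13: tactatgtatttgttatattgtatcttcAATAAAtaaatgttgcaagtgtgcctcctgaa
The hexamer was absent from the ends shown for Gm29488 and Gm42664 and present in those of Gm47920 and Peg13. Among the 10 members with the highest counts, only Gm47920 and Peg13 had it in their last 50 bases. Gm48302 and Gm42659, with more counts than Peg13, lacked it and are not shown.

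Over all members, AATAAA stood in the last 50 bases, read on the transcribed strand, of 24 of 109, or 22.0%. The share was 21.1% in the 218 other sense-intronic genes and 21.7% in 3219 TEC genes, a GENCODE class of loci still to be checked by experiment. It was 31.4% in lincRNA genes, 33.4% in antisense genes and 56.4% in protein-coding genes, and 30.4% over all 55450 genes with a sequence. By this measure the annotated ends of the members lay near those of TEC genes and below those of the other noncoding classes. A run of 6 A within the last 20 bases was found in 10 members, or 9.17%, and in 5.96% of the other sense-intronic genes. The share was 4.91% in TEC, 5.04% in antisense, 3.48% in lincRNA and 5.14% in protein-coding genes, and 3.87% over all genes. Neither match shows a used polyadenylation site.

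Sense-intronic genes reached the count of 20 about as often as TEC genes. The share was 33.3% of sense-intronic and 30.8% of TEC genes, against 17.3% of antisense, 6.18% of lincRNA and 50.2% of protein-coding genes, and 24.9% of all genes. At 0 in both libraries were 117 sense-intronic genes. The members had a median transcript length of 1919 bases, from 517 to 6071, against 687 in the sense-intronic genes under 20. Longer genes collect more reads at the same level, and the rule on counts keeps that difference. A single exon made up 69 members, and 102 had 1 annotated transcript. Chromosome 3 held 32 members of 66 sense-intronic genes, chromosome 5 held 18 of 39 and chromosome 1 held 11 of 31. Chromosome 2 held none of 16 and chromosome 16 none of 10.

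The members took a small part of the nuclear reads. They held 0.0706% of the gene counts in replicate 1 (exact binomial 95% interval 0.0695% to 0.0717%) and 0.0811% in replicate 2 (0.0798% to 0.0824%), a mean of 0.0759% ± 0.00743 (SD, n = 2). The intervals cover counting error only. After TMM normalization, which scales libraries by the bulk of their genes, the members summed to 747 CPM (counts scaled to a common library size) in replicate 1 and 767 in replicate 2. Their sum was thus closer between libraries relative to the bulk of genes than relative to the total count. Single members ranged from 5.12 to 1370 counts in replicate 1, with a median of 99, and from 14 to 929 in replicate 2, with a median of 89. In TPM they ranged from 0.15 to 16.71 (median 1.71) and from 0.2 to 18.55 (median 1.98). A TPM of at least 1 was reached by 77 members in replicate 1 and 87 in replicate 2, and 74 were detected in both.

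Gm29488 had the highest count of the class. It is a single exon of 2402 bases on chromosome 1 (131406812 to 131409213, minus strand) in intron 4 of Srgap2, whose protein shapes membranes. It held 1370 expected counts in replicate 1 (exact Poisson 95% interval 1298 to 1445) and 929 in replicate 2 (870.2 to 990.7). Its TPM was 15.79 and 15.35, or 14.0% and 13.8% of the TPM of Srgap2. Count and TPM stood in the upper end of the members in both libraries.

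Gm42664, a single exon in intron 7 of Ptbp2, a splicing regulator of the polypyrimidine-tract-binding family, held 940 and 788 counts. Gm47920 lies in intron 1 of Zmiz1, a transcriptional co-regulator, 795 bases from the host's start, and held 683.5 and 461 counts. Its exons overlap those of Zmiz1os1 on the other strand, and without known strandedness their reads cannot be told apart. Gm48302, in intron 2 of Ell2, an elongation factor of RNA polymerase II, held 503 and 426 counts. Gm42659, in intron 5 of Capza1, a subunit of the actin-capping protein, held 529 and 369. These 4 genes had TPM values between 7.60 and 13.67, all below those of Gm29488, and their hosts serve splicing, transcription and the cytoskeleton.

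Peg13 is known as an imprinted noncoding RNA, expressed from the paternal allele, and so is an RNA gene in its own right. It lies in intron 16 of Trappc9, a subunit of a vesicle-tethering complex, and held 398 and 422 counts, a TPM of 2.22 and 3.38. Trappc9 had a TPM of 5.49 and 6.22, so Peg13 stood at 40.4% and 54.3% of its host. Ppnr, in intron 4 of Tcf7l2, a transcription factor of the Wnt pathway, held 511 and 306 counts. Ppnr and its host were both lower in replicate 2, with a TPM of 3.89 and 3.34 for Ppnr and of 16.80 and 10.20 for Tcf7l2.

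The other 3 genes complete the top of the list, and the order of counts among them differs between libraries. Gm38190, in intron 1 of Tiprl, a regulator of protein phosphatases, held 334 and 455 counts, which made it the lowest of the 10 in replicate 1 and the fourth highest in replicate 2. D130062J10Rik, in intron 2 of the endocytosis gene Fcho2, held 406 and 335, and its exon overlaps Gm47551 on the other strand. Gm43329, in intron 1 of the small GTPase gene Rap1a, held 348 and 341. Together these 10 genes held 34.9% of the members' counts in replicate 1 and 33.0% in replicate 2. By level per length the order changed: Gm3513, in intron 1 of Fnip2, whose protein binds folliculin, had the highest TPM, 16.71 and 18.55, from 279 and 214 counts over only 637 bases.

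**Figure D1:**
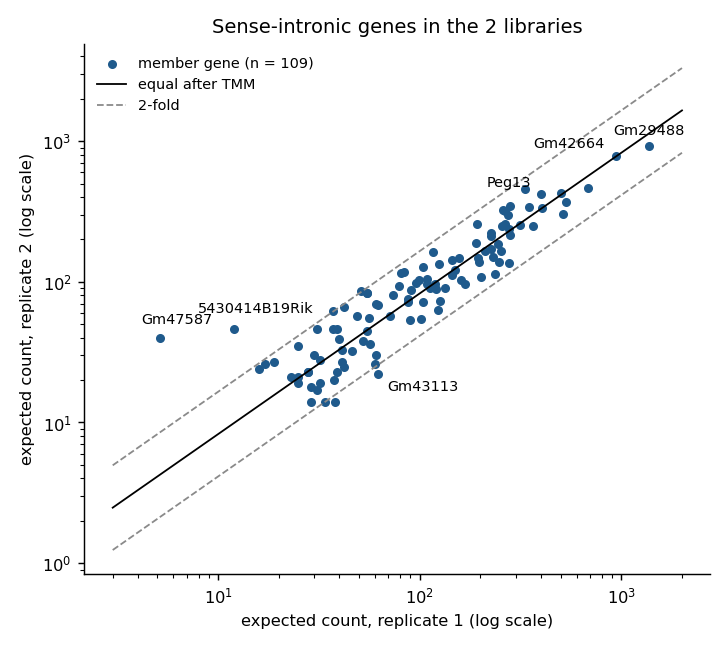
Expected counts of the 109 members in replicate 1 (x axis) and replicate 2 (y axis), both on log scales; each point is a gene, the solid line marks equality after TMM normalization and the dashed lines a 2-fold difference. Gm29488 stands at the top with 1370 and 929 counts, and 6 members lie outside the dashed lines.

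The count of 20 cuts through a continuous range. Just inside it were Gm47447 with 16 and 24 counts, Gm26971 with 17 and 26, and A930023M06Rik with 29 and 14. Just outside were Gm43259 with 19 and 20, Cep112it with 16 and 22, and Gm37062 with 21 and 17. Counting intervals of these genes overlap, so membership at the edge is not fixed by these depths.

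Every member lay within a host gene, taken as an annotated gene of another type whose span on the same strand contains the whole member. This follows from how the class is defined, and 325 of all 327 sense-intronic genes had such a host. The 109 members shared 87 hosts, of which a protein-coding gene was the host for 107 members. A lincRNA gene, Gm12474, held Gm42868, and the processed-transcript gene Gm4258 held Gm26930. Inside an intron of the host transcript with the most exons lay 105 members, 3 (Gm45464, Gm42829 and Gm47140) lay outside that transcript, and Gm45311 touched an exon of Sergef. Among the 105, 31 lay in intron 1, or 29.5%, against 37.1% of the other sense-intronic genes. The introns had a median length of 28236 bases, against 37474 for the others, and the members began a median of 33446 bases from the host's start.

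Hosts of members were mostly active in these nuclei. Of the 87 hosts, 80 reached a TPM of 1 in each library, or 92.0%, against 74 of the 183 genes that host only sense-intronic genes under 20, or 40.4%. The median TPM was 9.58 and 11.43 for hosts of members and 0.2 and 0.49 for the other hosts. Members were chosen by counts to which unspliced host RNA can add, so this difference can follow from the rule. It was not tested. No host of a member was among the 48 inflammatory, 38 interferon and 28 macrophage genes listed for this purpose. Lists this short would hold few of the hosts, so nothing is read from that.

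Member and host levels can be set side by side per length only. The median member stood at 17.7% of its host's TPM in replicate 1 (n = 108 with a host above 0) and 18.5% in replicate 2 (n = 107). As log2 of member over host, with 0.1 added to each TPM, the median was −2.37 in replicate 1 and −2.35 in replicate 2, and over the mean of both the quartiles were −3.27 and −1.61. The host's TPM counts its exons, and spliced host RNA adds to it but not to the member. Across members, log2 TPM of member and host had a Pearson r of 0.33 and a Spearman rho of 0.39 (n = 109 members, which share libraries and in part hosts). With 1 member per host these were 0.35 and 0.42 (n = 87). Members of highly read hosts thus tended to be higher, with wide scatter.

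**Figure D2:**
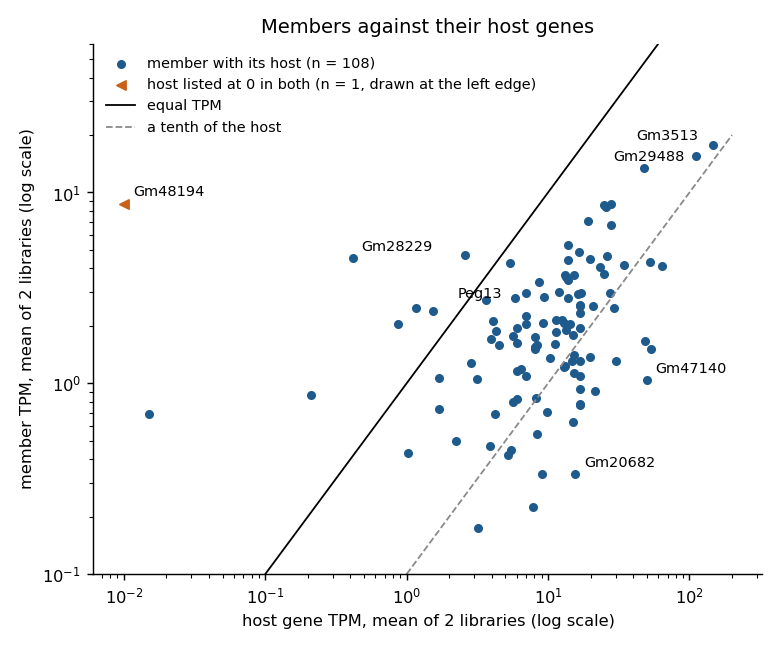
TPM of each member (y axis) against TPM of its host (x axis), means of 2 libraries on log scales; the solid line is equal TPM, the dashed line a 10-fold lower level, and the triangle marks a host listed at 0. Most points lie below the solid line, with Gm29488 and Gm3513 at the upper right.

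Above their host in TPM in both libraries stood 8 members. In 5 of these, the host was itself at a TPM under 1 in both libraries. Gm28229 had a TPM of 3.55 and 5.54, while its host Gm20537 had 0.19 and 0.64. Gm15535 had 0.54 and 0.84, with Gm37240 at 0.03 and listed at 0. AC157784.1 had 0.83 and 0.90, with Ccbe1, a secreted protein of lymphatic development, at 0.20 and 0.22. Few reads were assigned to these hosts: 5.14 and 11.81 counts for Gm20537, 3.22 and 0 for Gm37240, and 43 and 36 for Ccbe1. Reads that fit several overlapping genes can be assigned to another of them, so a low value does not show that a host's exons were unread. Gm42868 had 2.41 and 1.66, and its lincRNA host Gm12474 0.95 and 0.79.

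The host chosen can decide this ratio. Gm48194, at a TPM of 8.71 and 8.77, had the highest value over its host, and Gm49354, the shortest protein-coding gene that contains it, was listed at 0 in both libraries. It also lies within Tut7, a uridylyltransferase gene, at 57.17 and 54.26, and is far below that gene. Gm20705 likewise lies in Gm20696 and in the transcription factor gene Foxp1 (23.08 and 22.77), and Gm26971 in Gse1 and Gm20388. Gm17491 stood above a host of moderate level, Slc20a2, a phosphate transporter: 3.36 and 6.00 against 2.22 and 2.91. Gm44867 had 3.05 and 1.93, and Plekha7, of cell junctions, 1.99 and 0.32.

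The lowest members relative to their hosts lay in hosts above the median host TPM, which over members was 10.59 and 14.12. The host's TPM is the divisor of this ratio, so a high host by itself lowers it. Gm47587 had a TPM of 0.25 and 2.78 in 2010111I01Rik, at 47.10 and 59.40. Gm47140 had 1.28 and 0.79 in the zinc-finger gene Zfp445, at 47.69 and 51.94. Gm20682 had 0.31 and 0.36 in Foxn3, a forkhead repressor, at 14.80 and 16.20. Each was under 5% of its host in both libraries, and Gm47587 differed most between them.

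Along hosts that held several members, levels could be followed from the start of the gene. Cdk14, a cyclin-dependent kinase gene on the minus strand of chromosome 5 (4803391 to 5420312), held 7 members, and its own TPM was 17.04 and 16.54. In intron 2, Gm43728 had a TPM of 2.21 and 2.48 and Gm43727 had 2.63 and 2.47, at 108689 and 113310 bases from the start. In intron 5, Gm10484 had 1.09 and 1.10 and Gm43577 had 1.02 and 0.84. In intron 14, Gm43111 had 1.97 and 1.91, Gm43113 had 1.02 and 0.52, and Gm43112 had 0.88 and 0.67. The members of intron 2 were highest in both libraries, the pairs in introns 2 and 5 were close, and Gm43111, 550046 bases from the start, stood above the members of intron 5.

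The other hosts showed other orders. In Rap1a (TPM 11.45 and 16.13), Gm43331, Gm43330 and Gm43329 of intron 1 had a TPM of 2.57, 4.10 and 2.91 in replicate 1 and 3, 4.72 and 4.08 in replicate 2. Gm43328, farther on in intron 6, was higher than all of these, at 5.05 and 5.56. In Man1a2, a mannosidase gene of the Golgi, the first member, Gm43463, had 0.97 and 0.68. Gm43462 and Gm42869, both in intron 6, had 1.65 and 1.31 in replicate 1 and 2.23 and 1.95 in replicate 2, and Gm43466 in intron 10 had 0.96 and 1.36. In Lrig2, a membrane protein of growth-factor signalling, 4930509H03Rik, A530041M06Rik and Gm43696 had 1.39, 1.26 and 1.14 in replicate 1. In replicate 2 they had 1.63, 2.23 and 1.97, in another order. Levels in Rap1a were thus highest at the far end, and those in Man1a2 in the middle.

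Over all hosts with more than 1 member, 13 pairs of members shared an intron, in 7 hosts, and 32 pairs lay in different introns, in 9 hosts. The median difference within a pair was 0.33 and 0.45 on the log2 scale of TPM in the 2 libraries for pairs in 1 intron, and 0.82 and 0.91 for pairs in different introns. Within 2-fold in both libraries were 10 of the 13 pairs and 15 of the 32. Pairs of 1 host share members, and Cdk14 gives more pairs than any other host, so these are descriptions. This comparison was chosen after the values were seen. Across all members, log2 TPM had a Pearson r of −0.13 and a Spearman rho of −0.19 with log2 distance from the host's start (n = 109). Distance thus went with little of the spread among members.

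**Figure D3:**
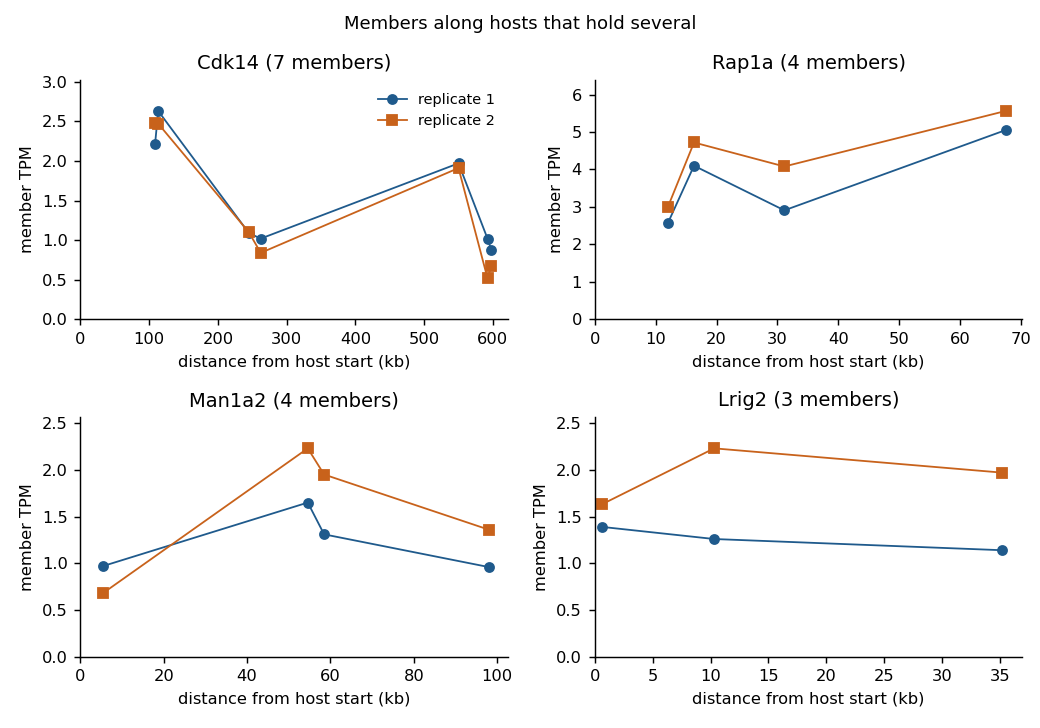
TPM of the members (y axis) of Cdk14, Rap1a, Man1a2 and Lrig2 by distance from the host's start in kb (x axis), with replicate 1 as circles and replicate 2 as squares; lines join members of a library. Levels in Cdk14 are mostly lower farther from the start, while those in Rap1a end at their highest value, 5.05 and 5.56.

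Between the libraries, the median member did not differ from the median gene. The log2 ratio of replicate 2 over replicate 1, after TMM and with 0.5 added to each count, had a median of 0.00 over members and 0.00 over all 13845 genes at a mean count of 20 or more. A difference past 2-fold was found for 6 members, or 5.50%, where the background over all genes at that count was 6.04%. In the direction higher in replicate 2 there were 4 members (background 1.99%), and in the direction lower 2 (background 4.04%). The total share is near the background, and the counts by direction are too small to be read either way. Scaling by the total gene count, which moved the median of all genes to 0.17, put 9 members past 2-fold higher (background 3.42%) and 1 lower (2.71%), 10 in all (6.13%). By the ratio of TPM, with a median of 0.23 over all genes, 8 members were higher (4.07%) and 0 lower (1.99%), 8 in all (6.06%). The other deposited quantification, described further on, gave 5 (4.29%). The split by direction thus moved with the scaling, and with 1 library on each side no test was made.

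The 6 members were mostly low in count. Gm43031, in intron 45 of the scaffold gene Akap9, had 51 counts in replicate 1 and 86 in replicate 2, a log2 ratio of 1.02 (95% counting interval 0.51 to 1.56). It was the only one past 2-fold among the 74 members with a mean of at least 50 (background at that count 4.06%). Gm43149, in the kinase gene Hipk1, had 37 and 62 counts (1.01). The lncRNA 5430414B19Rik, in Ngly1, a deglycosylating enzyme, had 12 and 46 (2.17), and Gm47587 had 5.12 and 39.86 (3.12). Lower in replicate 2 were Gm43113, with 62 and 22 counts (−1.20), and Gm44867, with 38 and 14 (−1.13). Gm47587 was uncertain for another reason: 78.0% of its 31-base words also occur in other genes. In the other quantification Gm43031, Gm43149 and Gm43113 were within 2-fold (0.66, 0.37 and −0.42), 5430414B19Rik stood at 1.01, Gm47587 at 1.52 and Gm44867 at −1.76. Gm44867 was within 2-fold by total count (−0.97), by TPM (−0.63) and with 5 added to each count (−0.90), and Gm43113 by TPM (−0.85). With 5 added, Gm43031 (0.97) and Gm43149 (0.95) were within 2-fold too. Past 2-fold under each of these settings were 5430414B19Rik and Gm47587.

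Members and hosts moved together only in part. Their log2 ratios between libraries had a Pearson r of 0.34 and a Spearman rho of 0.37 over 109 members. The value was 0.48 and 0.50 over the 74 members whose mean count reached 50, and 0.32 and 0.33 with 1 member per host (n = 87). In the other quantification it was 0.43 and 0.34 over all 109, and 0.37 and 0.41 over the same 74. Within the other quantification, r was thus lower and rho higher over the 74 than over all 109. Over the 74, both were lower there than in the gene tables. All members come from the same pair of libraries. Gm44867 and its host Plekha7 were both lower in replicate 2, with log2 ratios of −1.13 and −2.28. By contrast, 5430414B19Rik had 2.17 where Ngly1 had 0.41, and Gm47587 had 3.12 where 2010111I01Rik had 0.24. All 7 members of Cdk14 had ratios below 0, from −1.20 to −0.08, and Cdk14 itself had −0.41.

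**Figure D4:**
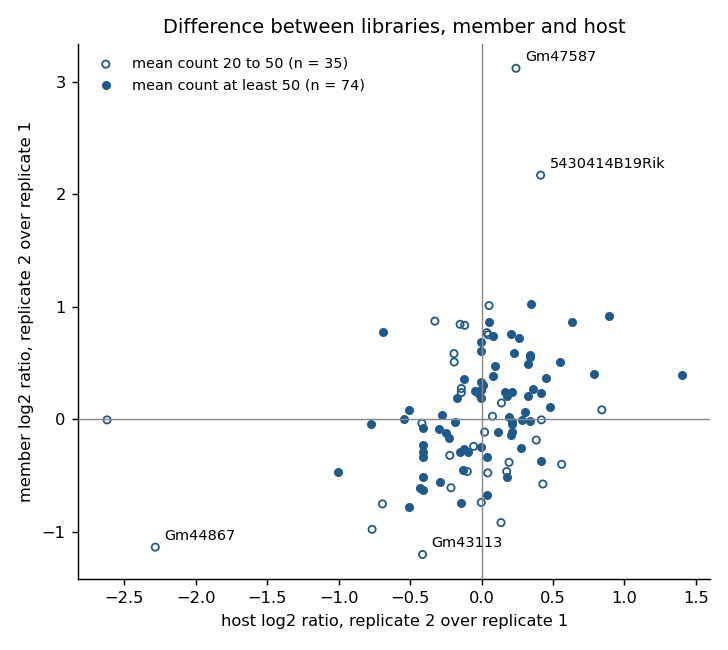
Log2 ratio of replicate 2 over replicate 1 for each member (y axis) against that of its host (x axis), after TMM normalization; filled points have a mean count of at least 50 and open points 20 to 50. Filled points reach from −0.78 to 1.02 on the y axis, and Gm47587 and 5430414B19Rik stand above them at 3.12 and 2.17.

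The listed factors that take apart intronic RNA were all detected. Of 21 genes of intron turnover and lariat debranching, 21 were detected. The highest were Dhx15, a helicase of spliceosome disassembly, with a TPM of 31.97 and 54.91, Pabpn1, the nuclear poly(A)-binding protein, with 38.63 and 40.09, and Zfc3h1, which links polyadenylated nuclear RNA to the exosome, with 30.72 and 47.79. Dbr1 itself was low, at 1.76 and 1.86. Of 20 genes that restrain or use polyadenylation sites inside introns, 20 were detected. The share of all genes detected by these limits is not given, so detection is not read as particular to the lists. By another limit, a mean count of at least 20, 50.2% of protein-coding genes passed. Pabpn1 is in both lists. None of either list was past 2-fold between libraries, where the background over all genes at a mean count of at least 20 was 6.04%. Lists this short would hold few such genes, so nothing is read from that. The median log2 ratios were 0.04 and 0.09, beside 0.00 over all genes.

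The number of reads assigned to a member differed between the deposited quantifications. The deposit holds another quantification, derived directly from reads, which gave a higher count than the gene tables for 109 of 109 members. Its gene counts also summed higher, to 32762245 in replicate 1 and 30438850 in replicate 2, against 24444219 and 18051097. The ratios of counts given here are not scaled for this. The median ratio of mean counts was 1.92, with 51 members past 2 and 12 past 5. The same shares over all genes are not given, so these numbers are not read as particular to members. The median was 1.99 in antisense, 1.92 in lincRNA, 1.69 in TEC and 1.44 in protein-coding genes, and 1.47 over all genes, so the median was above 1 in each of these classes. The lowest member was Gm47644, in Cep85l, at 1.17. Among members past 5-fold, the 3 with the most counts were Gm20705, Gm43113 and AC113485.1. Gm20705 had 55 and 83 counts in the gene tables and 792 and 347.5 in the other quantification, and so stood higher in replicate 2 in the first and lower in the second. Gm43113 had 62 and 22 against 251.3 and 198.7. AC113485.1, in Sgms1, a sphingomyelin synthase gene, had 52.57 and 38.15 against 621.3 and 599.96.

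AC113485.1 belongs to a set of near-identical members. It shares its 2705-base transcript with Gm47357, in Hdac9, a histone deacetylase gene, and Gm47739, in the helicase gene Mcm9. Each pair was between 98.4% and 98.6% identical, with 38 to 43 differing positions. The first 100 bases of the 3 transcripts show how few letters tell them apart; capitals mark the 7 positions that differ among them. They lie on the minus strand of mm10, at chr12:34628539-34628638 for Gm47357, chr19:32209174-32209273 for AC113485.1 and chr10:53575657-53575756 for Gm47739.
Gm47357: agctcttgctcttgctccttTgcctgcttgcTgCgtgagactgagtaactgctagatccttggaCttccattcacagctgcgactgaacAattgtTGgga
AC113485.1: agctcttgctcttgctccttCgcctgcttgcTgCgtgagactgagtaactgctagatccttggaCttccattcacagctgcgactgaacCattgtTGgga
Gm47739: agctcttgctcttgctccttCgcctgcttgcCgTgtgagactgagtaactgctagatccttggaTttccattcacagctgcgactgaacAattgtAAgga
A read in this stretch that covers none of the capitals fits all 3 genes.

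Of the 31-base words of these transcripts, 89.6% for Gm47357, 94.1% for AC113485.1 and 98.5% for Gm47739 occur in other annotated genes as well. At least 50% of the words were found in each of 15 other genes. Gm47739 had 37.61 and 20.19 counts in the gene tables and 1670 and 1786 in the other quantification, a 59.8-fold difference and the largest among members. Gm47357 had 226.96 and 170.59 against 652.4 and 565.1. The 3 values of each quantification are therefore uncertain, and so is the place of Gm47357 above its host, at a TPM of 2.30 and 2.48 against 1.41 and 1.65 for Hdac9. Counted on the transcribed strand only, 5 members had over 50% of their words in other genes, 11 had over 10%, and 41 had none. Matches to the reverse strand are not in these counts. They reached 99.4% in Gm29358, with 0.65% on its own strand, and 64.9% in Gm47644, with 0% on its own strand. Across members, the ratio between quantifications and the share of words on the transcribed strand had a Spearman rho of 0.53 (n = 109, Pearson r 0.50).

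**Figure D5:**
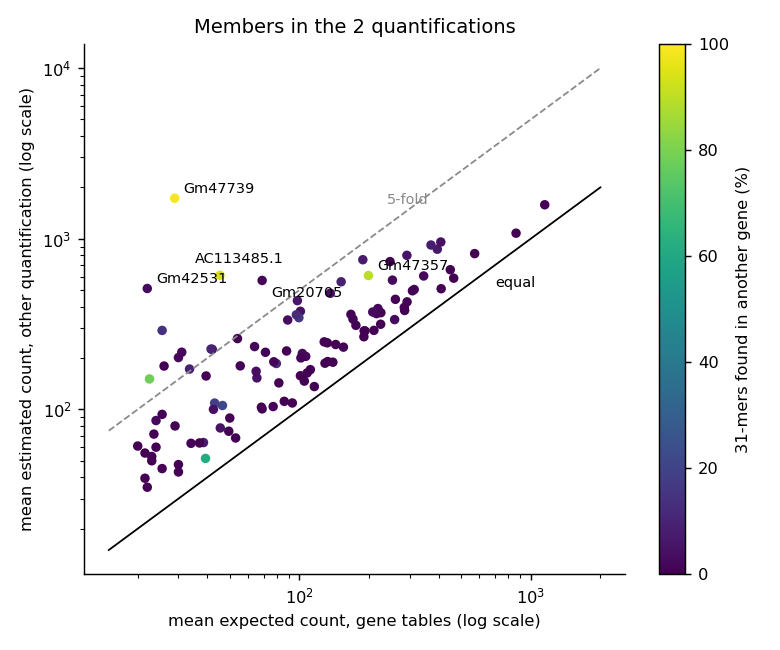
Mean count of each member in the other quantification (y axis) against the mean expected count in the gene tables (x axis), both on log scales. Colour gives the percent of 31-base words found in another gene, on the transcribed strand only. The solid line marks equality and the dashed line a 5-fold difference. All points lie above the solid line, and Gm47739 lies farthest from it, at 59.8-fold. Counts are not scaled for the higher total of the other quantification, which by itself raises the points.

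Overlap with other annotated exons touched few members. On the same strand, Gm29170 overlapped Gm25663, and Gm45311 overlapped Sergef. On the opposite strand 10 members overlapped an exon, and 97 overlapped none on either strand. For 99 members the deposited SD of read assignment was 0 in both libraries, so by that measure no read was split between them and another transcript. This does not show that their sequence is unique. Gm43577, for example, had an SD of 0 in both libraries. Yet 16.1% of its words occur in other genes, and its count was 3.46 times as high in the other quantification. Of the members with an SD above 0, Gm29358, in Pnkd, had an SD of 12.83 and 13.60 around counts of 89.01 and 53.64.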

How the data were processed

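Members and gene lists were chosen with earlier results of these data known. Per the file headers, the authors' deposited gene tables give expected counts and TPM per gene. A second transcript table per library, derived directly from reads, gives estimated counts and TPM. Per the deposited file descriptions, the assembly is mm10 with GENCODE M21. The sources used here do not name the aligner, the quantifiers or the strandedness. The percent of a gene's TPM per transcript, also deposited by the authors, was not used. Entries that name no gene (1.06% and 0.245% of counts) were left out.

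Expected counts were scaled by TMM over all genes (edgeR 4.0.16, R 4.3.3). A run on simulated counts checked only how the ratio is computed, and says nothing of differences between these libraries. DESeq2 1.42.0 gave size factors. With 2 libraries of 1 group, an exact two-sided test cannot go below 0.5, so none was made; called means past 2-fold. Where several genes contain a member, a protein-coding host came first, then the shortest. No genome sequence was used, so ends were searched inside the transcripts in place of the bases after them. Named genes are the 10 highest counts, members past 2-fold, those nearest to 20, the extremes over host or between quantifications (at most 3 each way), and the 4 hosts with the most members. The highest TPM, members past 2-fold at low counts, members above their hosts, Gm47739, Gm47357, Gm47644, Gm29358, Dbr1 and the placement exceptions were named after their values were seen.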

Additional observations from a re-analysis of the deposited data

How the results depend on the processing

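The number of members was 109. It was 137 at a mean count of at least 10, 74 at 50, 112 with any sense-intronic transcript, and between 105 and 110 with a single library, but 204 by the other quantification. All 109 kept a host with at least 50% of the span inside it as the condition, which is looser and so could not lower the number. Members past 2-fold numbered 6, and 10 with scaling by total counts, 8 by TPM, 5 by the other quantification, 3 with a prior count of 5, and 1 of the 74 with a mean of at least 50. By TPM relative to the all-gene median (0.23 on the log2 scale), a setting chosen after seeing the data, there were 3.

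The median log2 ratio of members, 0.00, became 0.17 by total counts, 0.25 by TPM, −0.044 by the other quantification, 0.031 over the 210 sense-intronic genes with any count and 0.021 by TPM relative to the all-gene median. The median log2 level over host, −2.46, was −2.17 by the other quantification, −1.92 with a pseudocount of 1 and −2.49 with the highest containing gene as host. It was −2.37 to −2.35 with a single library. In settings chosen after seeing the data it was −2.45 for members sharing under 10% of words and −2.44 with 1 member per host. The member-host correlation of 0.34 was 0.48 at a mean count of at least 50 and 0.43 by the other quantification. Of 80 alternative values for 16 single members, 61 stayed within the counting interval, 19 did not, and none of the called ratios changed sign.

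No paired analysis was possible because both libraries belong to 1 group. A member with 20 counts has a counting error that covers a 2-fold difference, which limits low members most. No group held enough libraries for a check of outlying samples.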
